A study of Mus musculus with 3 samples.

Results

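The thrombospondin family and the thrombospondin receptor gene Cd47 were followed in single mononuclear cells of the mouse diaphragm. The 6 genes Thbs1, Thbs2, Thbs3, Thbs4, Comp and Cd47 were taken by symbol from the 32285 genes of the expression tables. The rule for the choice used no measured value, but earlier results of these data were known when it was made. Each gene had UMIs (unique molecular identifiers, 1 per captured transcript) in all 3 libraries. The study asked how diet-induced obesity and loss of Thbs1 alter the cells of the diaphragm. Costal diaphragm of male mice, without the central tendon and the rib attachment, was digested with collagenase, dead cells were removed by DAPI staining, and the remaining cells entered 10X Genomics 3′ gene expression. The WT CD library came from C57Bl/6J mice kept on a control diet for 6 months from 2 months of age. The WT HFD library came from C57Bl/6J mice given a high-fat diet, with 45% of calories from lipid, over the same 6 months. The KO HFD library came from mice of genotype B6.129S2-Thbs1tm1Hyn/J, which carry a whole-body targeted Thbs1 allele, on the same high-fat diet. Each library pooled cells of 2 mice that its values cannot separate, all cells were isolated on one day, no knockout library on control diet was analysed, and WT HFD serves in both comparisons.

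Thrombospondins are large calcium-binding glycoproteins that cells secrete into the extracellular matrix. Thbs1 and Thbs2 form trimers, carry type 1 repeats and bind CD36 and CD47, whereas Thbs3, Thbs4 and Comp form pentamers without type 1 repeats and are best known from tendon, cartilage and muscle. Thbs1 can activate latent TGF-β, and CD47 on a cell's surface binds SIRPα on macrophages as a signal that restrains engulfment. In skeletal muscle, much of the matrix is made by fibro-adipogenic progenitors (FAPs), the resident mesenchymal cells.

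In GRCm38, Thbs1 (ENSMUSG00000040152) lies at chr2:118111876-118127133 on the plus strand and Thbs2 (ENSMUSG00000023885) at chr17:14665500-14694235 on the minus strand. Thbs1 overlaps the long noncoding RNA gene Gm29233 on the opposite strand. Thbs3 (ENSMUSG00000028047) lies at chr3:89215180-89226837 on the plus strand, where it overlaps Mtx1 on the opposite strand. Thbs4 (ENSMUSG00000021702) lies at chr13:92751590-92794818 on the minus strand, Comp (ENSMUSG00000031849) at chr8:70373558-70382066 on the plus strand and Cd47 (ENSMUSG00000055447) at chr16:49800533-49915010 on the plus strand. No other member shares chromosome 2 with Thbs1. Whether the counting used strand is not given in the sources used here. If it did not, reads of Thbs3 and Mtx1, or of Thbs1 and Gm29233, cannot be told apart where the genes overlap.

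Promoters of 4 of the 6 genes were found in a RefSeq table (GRCm38.p6), and their last 150 bases before the RefSeq start are shown because the 4 genes contrast a stromal pattern of detection (Thbs2, Thbs3, Thbs4) with detection in every cell class (Cd47). They are written 5′ to 3′ on the gene's strand, with capitals for a motif found on either strand. The motifs searched were the core of the TATA box, spelled TATAAA, and the CCAAT box. The GC box, spelled GGGCGG, was searched in the same way, and no match overlapped another. The 4 windows are chr17:14694263-14694412 for Thbs2, chr3:89215030-89215179 for Thbs3, chr13:92794819-92794968 for Thbs4 and chr16:49855504-49855653 for Cd47. Cd47 had 2 RefSeq entries, of which the first was used, and its window lies inside the Cd47 span given above.
Thbs2: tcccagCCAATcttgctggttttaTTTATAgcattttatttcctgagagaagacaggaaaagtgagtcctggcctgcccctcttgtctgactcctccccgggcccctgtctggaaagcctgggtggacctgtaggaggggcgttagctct
Thbs3: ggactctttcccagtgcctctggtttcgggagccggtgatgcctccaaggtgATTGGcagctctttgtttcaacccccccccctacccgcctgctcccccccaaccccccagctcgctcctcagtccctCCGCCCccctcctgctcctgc
Thbs4: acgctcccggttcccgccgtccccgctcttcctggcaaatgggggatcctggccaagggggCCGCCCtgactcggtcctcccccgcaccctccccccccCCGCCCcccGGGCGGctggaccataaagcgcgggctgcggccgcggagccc
Cd47: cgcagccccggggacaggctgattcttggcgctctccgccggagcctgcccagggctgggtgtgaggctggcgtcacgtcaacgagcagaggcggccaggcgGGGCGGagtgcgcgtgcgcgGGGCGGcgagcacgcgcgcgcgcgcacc
The Thbs2 window held 1 TATA box core, a motif in 7.57% of 32851 promoters of this length, and 1 CCAAT box, a motif in 24.5% of them. Thbs3 held 1 CCAAT box and 1 GC box, and the GC box was present in 28.6% of all promoters. Thbs4 held 3 GC boxes and Cd47 held 2, with no TATA box core or CCAAT box in either window. The ratio of observed to expected CpG was 0.19 for Thbs2, 0.36 for Thbs3, 0.75 for Thbs4 and 1.05 for Cd47, against a median of 0.41 over all promoters. These matches describe letters in the windows and nothing else.

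The 3 libraries held 12275 cell barcodes, between 3774 and 4369 each, with 31967976 to 36478779 UMIs per library and a median of 7554 to 8041.5 UMIs per cell. Cells were assigned to a class by markers that include no member of the set, which left 88.9 to 91.4% of each library in a class. FAP-like cells were the most numerous, 2240 in WT CD, 1990 in WT HFD and 2438 in KO HFD, and 347 of these 6668 cells had a margin of 1 marker over the next class or lay at the minimum of 3. Levels are given as CPM, the summed UMIs of a gene per 1000000 UMIs of that class in that library. With 1 library per group no difference has a replicate check, so no test was made. Pairs of libraries shared 7, 7 and 2 barcodes, and Scrublet marked 1.09 to 1.33% of cells as doublets, which were kept. Every interval is a 95% Poisson or exact binomial one and covers counting error only.

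**Figure D1:**
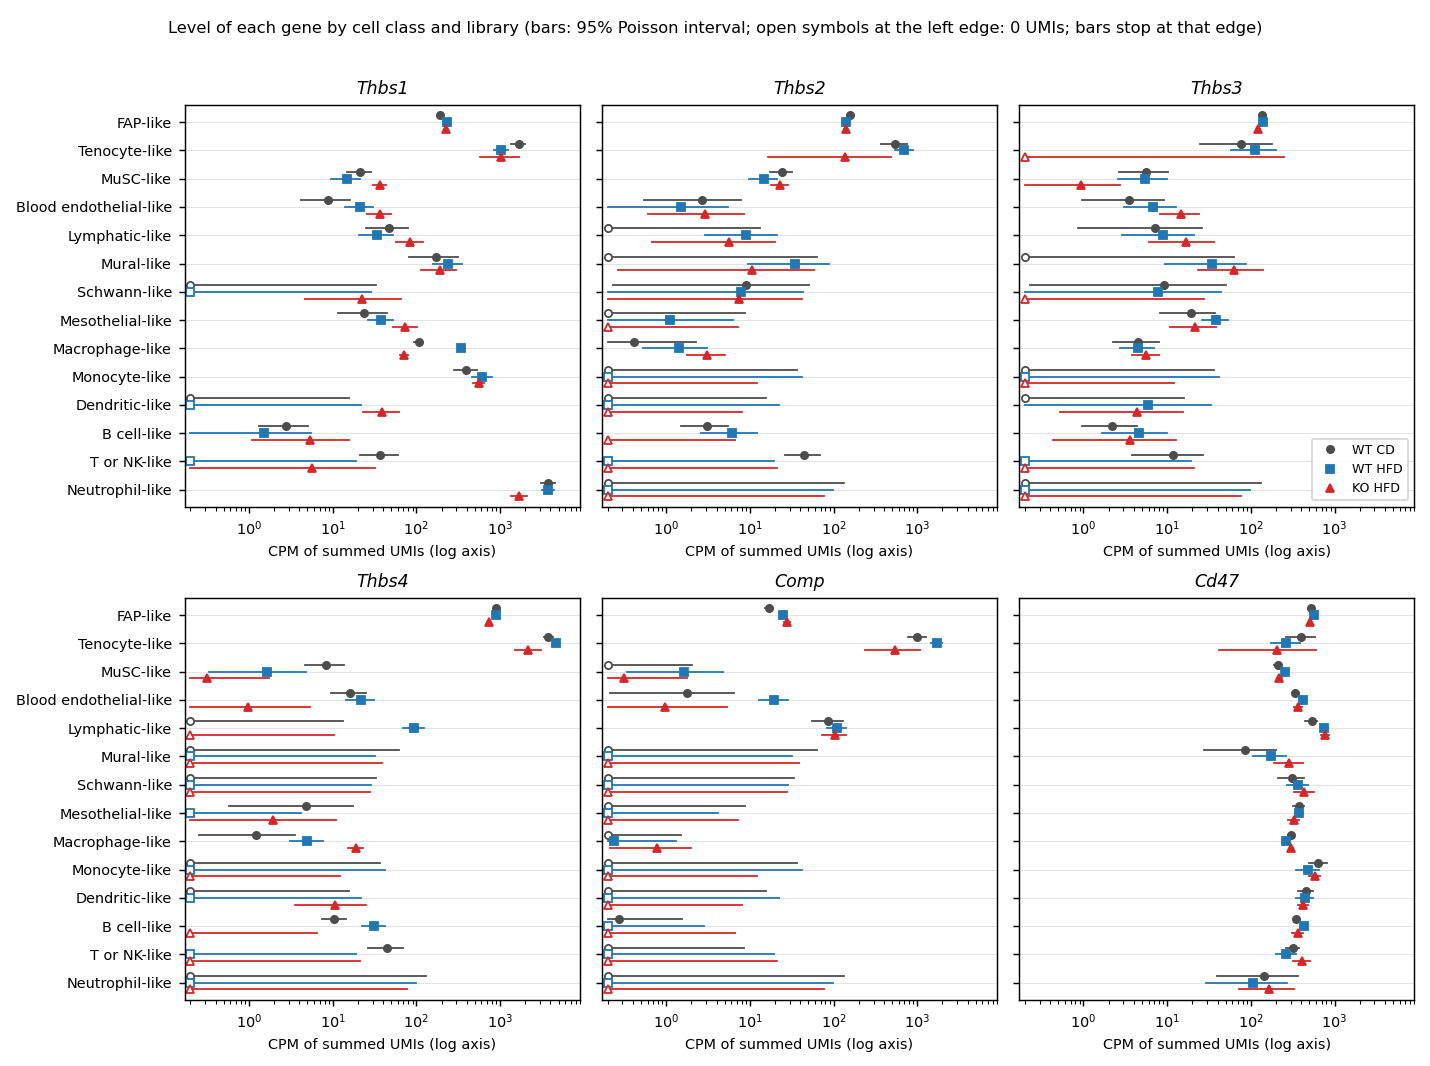
CPM of each gene on a log axis (horizontal) in 14 cell classes (vertical) of the WT CD (grey circles), WT HFD (blue squares) and KO HFD (red triangles) libraries, with 95% Poisson intervals and open symbols for 0 UMIs. Thbs2 and Thbs4 sit highest in tenocyte-like and FAP-like cells of the wild-type libraries, Thbs3 sits highest in FAP-like cells of each library, Thbs1 reaches 3761 CPM in neutrophil-like cells of WT CD, and Cd47 has UMIs in every class shown.

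Thbs1 was examined first because it is the gene targeted in the knockout. Thbs1 UMIs were present in the library labelled KO HFD: FAP-like cells had 190.4 CPM in WT CD (3865 UMIs), 234.8 CPM in WT HFD (4472 UMIs) and 225.2 CPM in KO HFD (4919 UMIs). The 2 high-fat libraries lay close together, with a log2 ratio of KO HFD to WT HFD of -0.06 (interval -0.12 to -0.00), and WT CD was below both. The sign of the ratio between the high-fat libraries turned under 4 of 12 other settings, thinning among them (log2 0.13). The part of the gene that the allele removes is not given in the sources used here, and 3′ tags that fall outside a deletion would be counted as before. The Thbs1 UMIs therefore neither check the genotype label nor measure functional Thbs1 transcript in KO HFD, and every Thbs1 value below carries that limit. Among the genes tested within 5 Mb of Thbs1 in FAP-like cells, 15 of 79 differed at least 1.5-fold between KO HFD and WT HFD (18.99%, against 4.48% of all genes tested), while 4 of 77 did so between WT HFD and WT CD (5.19%, against 5.39%). The extent of the donor strain's chromosome around the allele is not known from these files.

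Among FAP-like cells, Thbs1 was detected in a larger share of cells in KO HFD, with fewer UMIs per positive cell. A Thbs1 UMI was found in 33.4% of FAP-like cells in WT CD, 37.9% in WT HFD and 43.5% in KO HFD, and their binomial intervals did not overlap. B cell-like cells, taken as the background of free RNA, gave 0.831%, 1.31% and 2.27%, at median depths of 8376, 7175 and 4567 UMIs per cell against 8507, 9206 and 8452.5 in FAP-like cells. After each cell was thinned to 3000 UMIs, which left out 48, 20 and 42 shallower FAP-like cells, the shares were 22.2%, 23.9% and 28.1%, so KO HFD remained the highest. The binomial intervals of WT CD and WT HFD then overlapped. The mean number of Thbs1 UMIs per positive cell was 5.17 in WT CD, 5.92 in WT HFD and 4.64 in KO HFD. Cells with exactly 1 Thbs1 UMI made up 11.2%, 11.3% and 15.01% of the FAP-like cells, and cells with 20 or more made up 1.65%, 2.16% and 1.31%.

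**Figure D2:**
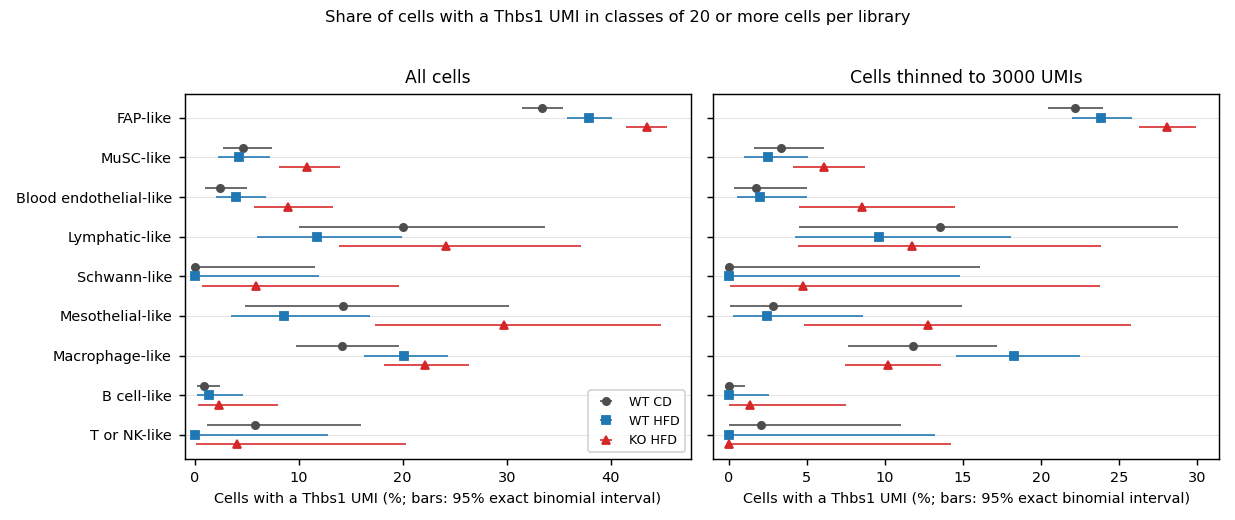
Share of cells with a Thbs1 UMI in % (horizontal) for 9 classes (vertical), in all cells (left) and after thinning to 3000 UMIs per cell (right), with 95% exact binomial intervals. KO HFD lies to the right of WT HFD in 9 of 9 classes on the left and in 7 of 9 on the right, where macrophage-like cells lie the other way.

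In 9 of the 9 classes with at least 20 cells per library, the share of Thbs1-positive cells was higher in KO HFD than in WT HFD, the thinned share was higher in 7 of 9, and the CPM was higher in 7 of 9. CPM intervals were apart in 2 of the 9 with KO HFD higher and in 1 with it lower. The 9 include the B cell-like background class, and Schwann-like and T or NK-like cells with 0 Thbs1 UMIs in WT HFD. Muscle stem cell-like (MuSC-like) cells, the myogenic progenitors, had 21.1, 14.7 and 36.3 CPM of Thbs1 in WT CD, WT HFD and KO HFD, with 4.65%, 4.23% and 10.8% of cells positive. KO HFD was 2.48-fold above WT HFD there (log2 ratio 1.31, interval 0.69 to 1.97), and its CPM interval met neither wild-type one. Thinning kept the order, at 3.38%, 2.51% and 6.13% positive. With Leiden clusters in place of gates the levels were 51.7, 22.4 and 47.4 CPM, so KO HFD stayed above WT HFD but not above WT CD. Blood endothelial-like cells had 8.84, 21.0 and 36.8 CPM, from 10, 28 and 38 UMIs, a 1.75-fold ratio of KO HFD to WT HFD whose 2 CPM intervals overlapped. Leiden clusters gave 35.8, 9.37 and 37.2 CPM, which turned the direction between WT HFD and WT CD. Mesothelial-like cells, which line the muscle's surface, numbered 35, 82 and 47 and had 23.95, 38.1 and 74.0 CPM, with 2.86%, 2.47% and 12.8% of thinned cells positive. The CPM intervals of both high-fat libraries overlapped there. In lymphatic-like cells the 46.7, 34.1 and 83.6 CPM depended on the gate, since a stricter lead of 2 markers gave 40.3, 46.8 and 30.9 CPM and turned the direction between the high-fat libraries.

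Macrophage-like cells showed the opposite order in level. Thbs1 stood at 106.4 CPM in WT CD (260 UMIs), 342.9 CPM in WT HFD (1448 UMIs) and 71.3 CPM in KO HFD (368 UMIs). WT HFD was 3.22-fold above WT CD (log2 1.69, interval 1.497 to 1.88) and KO HFD was 4.81-fold below WT HFD (log2 -2.27, interval -2.44 to -2.10). Nearly all of that excess came from 1 subset: macrophages gated on Alox15, Prg4, Serpinb2 and Gata6, genes of large peritoneal macrophages, numbered 6, 55 and 15 and carried 66, 1315 and 178 of the Thbs1 UMIs. Within that subset the level was 889, 1599 and 784 CPM, so KO HFD was 2.04-fold below WT HFD (log2 -1.03, interval -1.26 to -0.80). Cells with 10 or more Thbs1 UMIs numbered 11, 54 and 9 among all macrophage-like cells. In the subset marked by Folr2 and Cd163, genes of resident macrophages, Thbs1 was 5.50, 15.2 and 24.8 CPM, and in the subset marked by Mmp12 and Retnla it was 93.5, 62.0 and 41.2 CPM. The number of cells of each subset and the level per cell thus both differed between libraries.

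**Figure D3:**
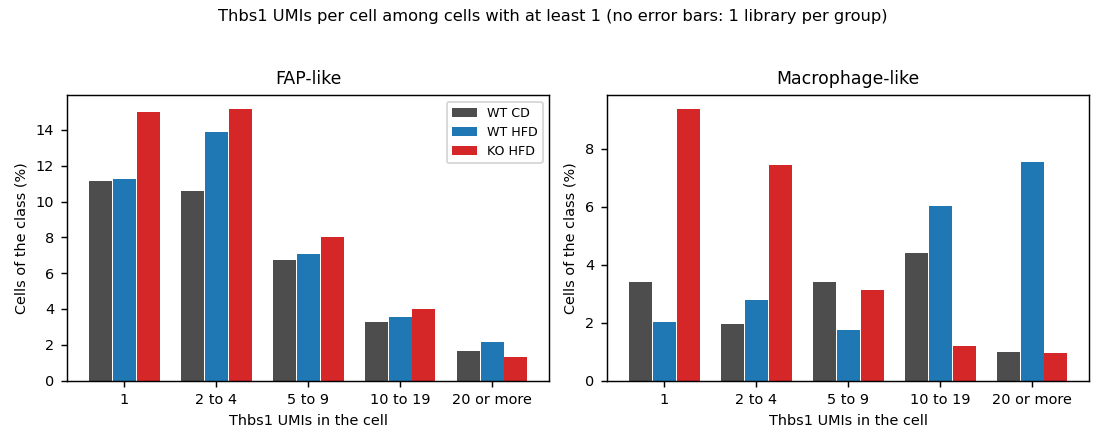
Percent of FAP-like (left) and macrophage-like (right) cells by the number of Thbs1 UMIs they held, in bins from 1 to 20 or more, for each library. In FAP-like cells KO HFD has the tallest bar at 1 UMI (15.01%) and the lowest at 20 or more (1.31%).

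The highest Thbs1 levels lay in small classes. Neutrophil-like cells, 13, 19 and 24 in number, had 3761, 3740 and 1707 CPM, and 100%, 94.7% and 62.5% of them were positive, so KO HFD was 2.19-fold below WT HFD. Tenocyte-like cells, 9, 13 and 3 in number, had 1666, 1020 and 1020 CPM, and monocyte-like cells had 393, 616 and 559 CPM. Among the 9 classes of at least 20 cells in each library, in WT HFD, macrophage-like and FAP-like cells came first, then mesothelial-, lymphatic-, blood endothelial- and MuSC-like cells, where each neighbour's interval met the next, then B cell-like cells at 1.52 CPM, and Schwann-like and T or NK-like cells at 0 UMIs. A count of 0 in those 29 and 27 cells allows shares of up to 10.3% and 11.1%. Because FAP-like cells were so many, they still held 82.9%, 69.2% and 82.5% of each library's Thbs1 UMIs.

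FAP-like cells were divided by markers into FAP1-like, FAP2-like and FAP4-like cells and the rest. FAP1-like cells numbered 1039, 881 and 1119, FAP2-like cells 330, 425 and 382, FAP4-like cells 174, 141 and 209, and other FAPs 697, 543 and 728 in WT CD, WT HFD and KO HFD. Thbs1 was highest in FAP1-like cells in every library, at 268.6, 356.1 and 311.5 CPM, and lowest in FAP4-like cells of both wild-type libraries, at 105.6 and 83.6 CPM. In KO HFD, FAP4-like cells had 145.5 CPM, close to FAP2-like cells. Between KO HFD and WT HFD the FAP1-like level was lower by a log2 ratio of -0.19 and the FAP4-like level was 1.74-fold higher (log2 0.80, interval 0.47 to 1.14). FAP2-like cells had 147.8, 152.0 and 143.5 CPM and other FAPs 124.7, 159.7 and 172.0 CPM, with intervals of both high-fat libraries overlapping.

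Cells with a Thbs1 UMI also differed from the other FAP-like cells in genes that respond to tissue dissociation. At 3000 UMIs per cell, the summed level of 10 immediate-early and heat-shock genes was 19750 CPM in Thbs1-positive and 13904 CPM in Thbs1-negative FAP-like cells of WT CD. The same sums were 16499 and 12309 CPM in WT HFD and 22197 and 14345 CPM in KO HFD, so the positive cells were higher in all 3 libraries. FAP1-like cells made up 61.1%, 56.4% and 57.2% of the positive cells against 42.6%, 40.6% and 42.0% of the negative ones. The part of dissociation in the Thbs1 levels was not tested.

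The members were then compared over all FAP-like cells, between KO HFD and WT HFD and between WT HFD and WT CD. A gene counted as different when it had at least 50 UMIs over both libraries and a ratio of at least 1.5. By that rule 0 of the 6 members differed between KO HFD and WT HFD, against 4.48% of the 12293 genes tested, and 0 of 6 differed between WT HFD and WT CD, against 5.39% of 12192 genes. The second count was 0 with Comp at 1.49-fold, and 5 of 12 other settings put Comp past 1.5-fold and made it 1 of 6. Those log2 ratios ran from 0.77 with Leiden clusters in place of gates to 1.34 with the FAP subsets weighted alike. That weighting also put Comp past 1.5-fold, lower, for KO HFD against WT HFD (log2 -0.87), which made the first count 1 of 6. The median log2 ratio of the 6 was -0.09 for KO HFD to WT HFD, beside -0.03 over all genes, and 0.05 for WT HFD to WT CD, beside 0.08.

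**Figure D4:**
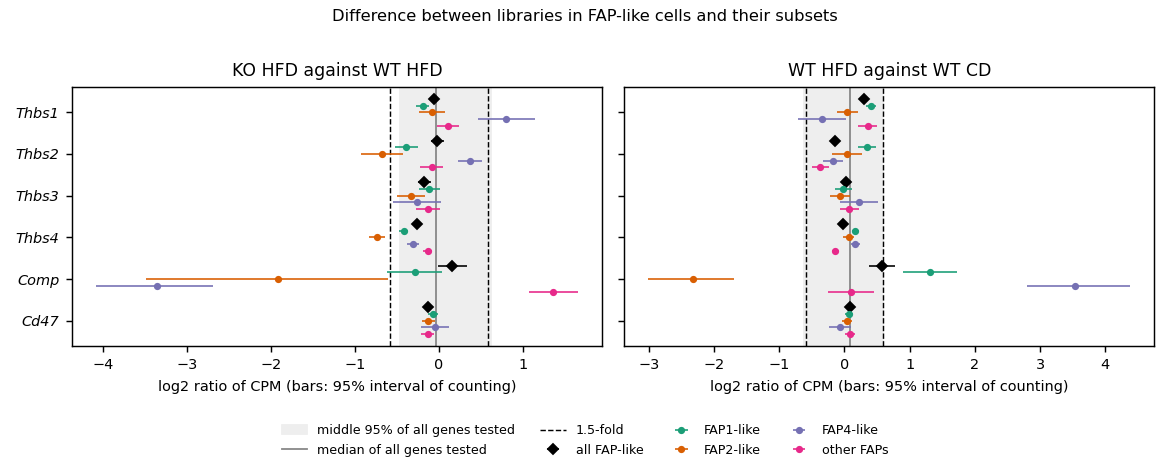
Log2 ratio of CPM (horizontal) of each gene (vertical) for KO HFD to WT HFD (left) and WT HFD to WT CD (right), in all FAP-like cells (black diamonds) and their 4 subsets (coloured circles), with 95% intervals of counting, the median and the middle 95% of all genes tested, and dashed lines at 1.5-fold. All 6 black diamonds lie between the dashed lines, and FAP2-like Thbs2 and Thbs4 lie below the lower line on the left.

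Thbs2, the second trimeric member and an inhibitor of angiogenesis, was close to stromal: FAP-like cells held 95.5%, 92.5% and 95.9% of its UMIs. Their level was 156.5, 141.7 and 139.8 CPM in WT CD, WT HFD and KO HFD, with 42.2%, 46.5% and 39.2% of cells positive and 24.9%, 24.7% and 23.2% after thinning. WT CD was slightly above both high-fat libraries, and the interval of the ratio of KO HFD to WT HFD included 0 (log2 -0.02, interval -0.09 to 0.06). The B cell-like shares were 1.66%, 0.654% and 0 of 88 cells, which allows a share of up to 3.41%.

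The subsets held more contrast than the sum. Thbs2 was highest in FAP4-like cells, which were gated on the tendon and fibroblast genes Fmod, Sfrp2 and Tnmd, at 526.7, 465.1 and 601.4 CPM. FAP1-like cells had 92.7, 117.6 and 89.8 CPM of it, and FAP2-like cells 75.2, 77.1 and 48.2 CPM. FAP2-like cells of KO HFD were thus 1.60-fold below WT HFD (log2 -0.68, interval -0.93 to -0.43), FAP1-like cells were below by a log2 ratio of -0.39, and FAP4-like cells were above by 0.37. In MuSC-like cells Thbs2 had 23.9, 14.7 and 22.7 CPM from 43, 27 and 72 UMIs, and the intervals of all 3 overlapped.

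Thbs3, a pentameric member studied in bone and heart, was spread over most FAP-like cells. It had 137.1, 139.2 and 123.2 CPM, and 61.3%, 64.2% and 58.1% of FAP-like cells were positive. KO HFD was lower than WT HFD by a log2 ratio of -0.18 (interval -0.25 to -0.10), while the wild-type libraries overlapped. The subsets lay close to each other in Thbs3: FAP1-like cells had 127.4, 126.0 and 116.6 CPM, FAP2-like cells 153.4, 146.2 and 116.4 CPM, FAP4-like cells 131.2, 152.9 and 127.4 CPM and other FAPs 142.6, 149.99 and 136.7 CPM. KO HFD was below WT HFD in 4 of 4 subsets, with intervals apart in FAP2-like cells alone. After thinning, the share of Thbs3-positive cells was lower in KO HFD than in WT HFD in 7 of 9 classes and higher in 0. Without thinning the share was higher in KO HFD in 4 of 9. The CPM was higher in 3 and lower in 5, with intervals apart in 1 class, where KO HFD was lower. The levels outside FAPs were low, and mesothelial-like cells came next among the larger classes at 19.2, 38.1 and 21.4 CPM.

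Thbs4, a pentameric member of tendon and muscle matrix, was concentrated in part of the FAP-like cells. It had 900.1, 890.2 and 741.8 CPM from 18276, 16953 and 16200 UMIs, and 50.3%, 50.8% and 46.1% of the cells were positive. The wild-type libraries differed by a log2 ratio of -0.02 (interval -0.05 to 0.01), and KO HFD was 1.20-fold below WT HFD (log2 -0.26, interval -0.29 to -0.23). Thinned shares were 43.2%, 42.3% and 38.2%, and the mean UMIs per positive cell were 16.2, 16.8 and 14.4, so KO HFD was the lowest in both. B cell-like cells with a Thbs4 UMI made up 0.554%, 0.654% and 0 of 88 cells, which again allows up to 3.41%.

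All 4 subsets had less Thbs4 in KO HFD than in WT HFD, with CPM intervals apart in each. FAP2-like cells had 533.0, 558.3 and 335.4 CPM, so KO HFD was 1.66-fold below WT HFD (log2 -0.74, interval -0.83 to -0.64). FAP1-like cells had 649.7, 730.2 and 545.4 CPM (log2 ratio of KO HFD to WT HFD -0.42). FAP4-like cells had the highest level, 2351, 2634 and 2126 CPM (log2 -0.31), and 89.7%, 92.2% and 94.7% of them were positive. Other FAPs had 1133, 1027 and 936 CPM (log2 -0.13). Between WT HFD and WT CD the same ratios were 0.07, 0.17, 0.16 and -0.14, so the subsets did not move one way with diet.

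**Figure D5:**
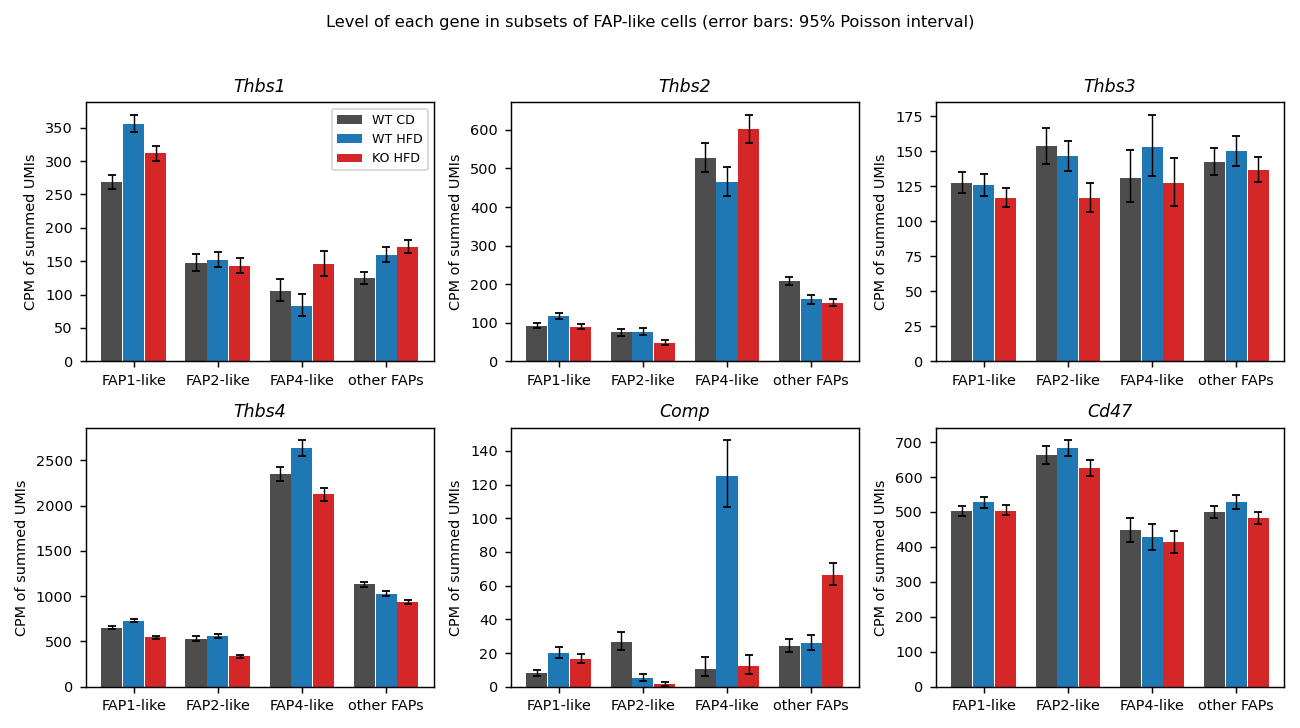
CPM of each gene (vertical, separate scales) in FAP1-like, FAP2-like, FAP4-like and other FAP-like cells (horizontal) for WT CD (grey), WT HFD (blue) and KO HFD (red), with 95% Poisson intervals. Thbs2 and Thbs4 are highest in FAP4-like cells, Thbs1 in FAP1-like cells and Cd47 in FAP2-like cells in each library, and the red bar of Thbs4 is the lowest of the high-fat pair in all 4 subsets.

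Counted over the subsets, the 1.5-fold rule named 2 of 5 members tested in FAP2-like cells for KO HFD against WT HFD, Thbs2 and Thbs4, both lower, where 4.06% of all genes passed in either direction and 1.92% were lower. It named none of 6 in FAP1-like cells (4.19% of all genes), Thbs1 (higher) and Comp (lower) of 6 in FAP4-like cells (7.94%), and Comp alone (higher) of 6 in other FAPs (4.58%). Between WT HFD and WT CD, the rule named Comp and no other member: higher in FAP1-like cells (5.27% of all genes) and FAP4-like cells (10.3%) and lower in FAP2-like cells (5.96%), with none in other FAPs (6.66%). The FAP2-like call rested on 1 cell of WT CD, which held 80 of 101 UMIs. Without the cell richest in Comp in each library, 21 UMIs in WT CD (5.62 CPM) and 18 in WT HFD (3.71 CPM) remained, under the minimum of 50. The same step put Thbs1 in FAP4-like cells at 56.5 CPM in WT HFD against 96.6 CPM in WT CD (log2 -0.77), past 1.5-fold.

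Thbs2 and Thbs4 tended to be detected in the same FAP-like cells. At 3000 UMIs per cell, Thbs2 was found in 39.3% of Thbs4-positive and 13.9% of Thbs4-negative cells in WT CD, in 33.8% and 18.0% in WT HFD, and in 38.3% and 13.9% in KO HFD. Thbs1 showed no such excess, being found in 19.6%, 21.8% and 27.5% of Thbs2-positive and 23.0%, 24.5% and 28.3% of Thbs2-negative cells. Cells of 1 library share its mice and preparation, so these shares are descriptions. In tenocyte-like cells the Thbs4 level was 3774, 4722 and 2177 CPM. In several other classes few cells held most of the UMIs. All 52 Thbs4 UMIs of lymphatic-like cells in WT HFD lay in 1 cell, as did 41 UMIs of B cell-like cells, and 2 cells held most of the 98 UMIs in macrophage-like cells of KO HFD, where WT HFD had 21 UMIs in 9 cells and WT CD had 3. Blood endothelial-like cells had 18 UMIs in 7 cells, 29 in 6 cells and 1 in 1 cell.

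Comp, the cartilage oligomeric matrix protein, was found in few cells. In FAP-like cells it had 16.7, 24.8 and 27.7 CPM from 339, 473 and 606 UMIs, with 2.46%, 4.07% and 4.72% of cells positive. WT HFD was 1.49-fold above WT CD (log2 0.57, interval 0.37 to 0.78), and the interval of KO HFD to WT HFD included 0 (log2 0.16, interval -0.02 to 0.34). The 10 cells with the most Comp held 68.7%, 47.6% and 42.1% of those UMIs, the log2 ratio of WT HFD to WT CD without them was 1.32, and the subsets went separate ways. FAP4-like cells had 10.8 (16 UMIs in 2 cells), 125.4 and 12.3 CPM, FAP2-like cells 26.9 (80 of 101 UMIs in 1 cell), 5.35 and 1.41 CPM, FAP1-like cells 8.13, 20.1 and 16.5 CPM and other FAPs 24.2, 25.9 and 66.5 CPM. The 6 tenocyte markers, of which Kera was at 0 in both high-fat libraries, summed to 58.8, 73.4 and 76.5 CPM in FAP-like cells, and their part in the Comp levels was not tested. Without the FAP-like cells that held 2 or more of these markers, the log2 ratio was 0.24 for WT HFD to WT CD and 0.54 for KO HFD to WT HFD, and with the subsets weighted alike the latter was -0.87.

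Among the classes with at least 20 cells per library, lymphatic-like cells had the highest Comp level. They had 86.2, 109.6 and 103.1 CPM from 24, 61 and 37 UMIs, in 26%, 34.0% and 32.8% of 50, 94 and 58 cells. The 3 intervals overlapped, and thinning gave 13.5%, 27.7% and 25.5%. Blood endothelial-like cells had 1.77, 19.5 and 0.967 CPM of Comp from 2, 26 and 1 UMIs, and the interval of WT HFD lay above both others. Leiden clusters in place of gates left 0, 3 and 1 UMIs there, so that difference depended on how the class was drawn. Tenocyte-like cells, the tendon fibroblasts, had 993, 1719 and 544 CPM from no more than 13 cells a library.

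Cd47, the receptor, was detected in all classes shown. FAP-like cells had 527.5, 560.6 and 514.1 CPM, with 94.8%, 96.9% and 94.7% of cells positive and 77.2%, 78.1% and 74.5% after thinning. WT HFD was slightly above both others, by a log2 ratio of 0.09 over WT CD (interval 0.05 to 0.13), and the ratio of KO HFD to WT HFD was -0.12 (interval -0.16 to -0.09), or 1.09-fold lower. FAP2-like cells were highest at 663, 682 and 626 CPM, followed by FAP1-like cells at 502, 528 and 504 CPM and other FAPs at 500.2, 528 and 482 CPM, whose intervals overlapped in each library. FAP4-like cells were lowest at 448, 427 and 413 CPM. No class served as a background for Cd47, since none lacked it.

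Outside FAPs, Cd47 had 532, 755 and 772 CPM in lymphatic-like cells, the highest of the larger classes in both high-fat libraries. WT HFD exceeded WT CD there by a log2 ratio of 0.51 (interval 0.23 to 0.79), and both high-fat libraries overlapped. Blood endothelial-like cells had 340.2, 421 and 367.5 CPM, B cell-like cells 348, 429 and 361 CPM and mesothelial-like cells 371, 375 and 323 CPM. MuSC-like cells had 211, 255 and 219.7 CPM. Macrophage-like cells went the other way, at 302, 266 and 306 CPM, with KO HFD above WT HFD by a log2 ratio of 0.20 (interval 0.09 to 0.31). Leiden clusters in place of gates gave 257.7, 234.3 and 235.9 CPM, so the difference between the high-fat libraries depended on how the class was drawn. The Alox15 and Prg4 subset of the gated macrophage-like cells had 269, 120.4 and 141 CPM, so WT HFD was 2.24-fold below WT CD, with 20 UMIs in WT CD.

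The remaining classes added members past 1.5-fold mostly where UMIs were few. In MuSC-like cells 2 of 3 members tested, Thbs1 and Thbs2, were past it, both higher in KO HFD than in WT HFD (7.90% of all genes passed in either direction and 2.91% were higher), and 1 of 3, Thbs2, was lower in WT HFD than in WT CD (21.8%). Leiden clusters gave 47.0, 27.1 and 23.3 CPM of Thbs2 in MuSC-like cells, so the difference between KO HFD and WT HFD turned and was no longer past 1.5-fold. In macrophage-like cells Thbs4 was higher and Thbs1 lower, of 3, in KO HFD against WT HFD (9.35%), and Thbs1 was higher, of 2, in WT HFD against WT CD (13.5%). Leiden clusters kept both Thbs1 directions there (125.7, 526 and 116.9 CPM) and turned that of Thbs4 (1.24, 28.6 and 10.8 CPM). In blood endothelial-like cells Thbs1 was higher, of 2, in KO HFD (8.96%; 31 and 17 UMIs without the richest cell of each library, under the minimum of 50), and the 1 member tested for diet was not past the threshold (10.1%).

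Receptors and partners of thrombospondins came next. Of 20 listed genes 19 were tested in FAP-like cells between KO HFD and WT HFD, and 2 were past 1.5-fold, against 4.48% of all genes. Itga4, an integrin chain (54 against 7 UMIs, log2 2.75), was higher and Itga6, a laminin receptor chain (17 against 36 UMIs, log2 -1.28), was lower, with a median log2 ratio of -0.10 over the list. Between WT HFD and WT CD 17 were tested and Cd36 alone was past 1.5-fold, against 5.39% of all genes (63 against 21 UMIs, log2 1.68), with a median of 0.13. Cd36, the scavenger receptor that binds Thbs1 and Thbs2, stood at 1.03, 3.31 and 3.30 CPM in FAP-like cells, at 1786, 2563 and 2151 CPM in blood endothelial-like cells and at 196, 371 and 367 CPM in macrophage-like cells. Lrp1, an endocytic receptor that takes up thrombospondins, had 989, 1041 and 1100 CPM in FAP-like cells. Sirpa, which encodes the partner of CD47, had 147, 139 and 173 CPM in macrophage-like cells.

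Other matricellular genes, whose secreted products also modulate how cells meet the matrix, gave 2 of 13 tested past 1.5-fold in FAP-like cells of KO HFD against WT HFD, where 4.48% of all genes were. These were Spp1 (osteopontin, log2 0.83) and Tnc (tenascin C, log2 1.17), both higher, and the list's median was -0.11. Between WT HFD and WT CD Tnc alone of 13 was past it (log2 1.34), against 5.39%, with a median of 0.20. In macrophage-like cells 6 of 6 tested were past it between WT HFD and WT CD, where 13.5% of all genes were, and 5 of these, Sparc, Sparcl1, Spp1, Tnxb and Smoc2, were higher by log2 ratios of 0.76 to 1.95. The FAP marker list summed to 105, 270.2 and 223 CPM in those macrophage-like cells, and its part in these ratios was not tested.

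For each member, the genes with the most similar pattern were found by Pearson correlation of log2(CPM + 1) over 27 sums, 9 classes in each of the 3 libraries, among 12370 genes. These sums share libraries, cells and depth, so r is a description and carries no p. Thbs1, taken over 18 sums without KO HFD, had among its closest genes Arhgap6 (r of 0.89), Rab3il1, Igf1 and Chp1. Thbs2 was closest to Gsn (0.90), Mmp2 (0.89), Olfml3, Ccn5 and Lama2. Thbs3 was closest to Cd248 and Dclk1 (0.88 for both), then Ptges, Fgf18 and Podn. Thbs4 was closest to Tmem45a and Cilp (0.90 for both), then Myoc, Itga11 and Tnmd. Comp, which lay highest in lymphatic-like cells among these classes, was closest to Itih2 (0.96), Pcdhga3, Ackr2, Gucy1b1 and Hoxd9. Cd47 had the lowest leading value, with Ackr2 at 0.83, followed by Itih2, Comp, 2900041M22Rik and Chst1.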

How the data were processed

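Single-cell 3′ expression was analysed from 1 library per group (WT CD, WT HFD, KO HFD), grouped by genotype and diet label. Per the labels, the authors mapped reads to mm10 with Cell Ranger 6.1.1; the matrix headers name version 6.1.0, and the files name GRCm38. The deposited values are raw UMI counts per gene and barcode for 12275 barcodes, all of which were kept.

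Classes were gated by UMIs of at least 3 of 6 markers (tenocyte-like, FAP-like and so on) and more markers than any other class. Subsets needed 2 markers and a lead: FAP1-like from G0s2, Hsd11b1, Vtn, Ccl11, Mme and Cxcl14, FAP2-like from Limch1, Efhd1, Stmn4, Cmah, Dact2 and Dpp4, FAP4-like from Fmod, Sfrp2 and Tnmd. Macrophage subsets were gated on Folr2, Cd163, Timd4 and Cbr2, on Mmp12, Retnla, Ear2 and Fn1, and on Alox15, Prg4, Serpinb2 and Gata6. The gates, the members and the gene lists were chosen with earlier results of these data known. UMIs were summed per class and library and given as CPM. Ratios have exact conditional binomial intervals at 95%, which cover counting error only, and a gene with 50 or more UMIs over both libraries counted as different at 1.5-fold. With 1 library per group no test was possible and no p-value is given. Shares of positive cells (Clopper-Pearson intervals) were also computed after thinning each cell to 3000 UMIs. Depth was 31967976 to 36478779 UMIs per library.

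Named genes were the 6 members, genes of the 3 lists past 1.5-fold and the 5 genes most like each member, of which 1 is not reported here. Lrp1 and Sirpa were added for their role after their values were seen. Alternatives were other gates, Leiden clusters, removal of doublets marked by Scrublet, a filter on cells (at least 500 genes, at most 10% mitochondrial UMIs), TMM and median-of-ratios scaling, per-cell means and thinning. Python 3.11.15, numpy 2.4.6, scipy 1.17.1, pandas 2.3.3, scikit-learn 1.9.0, scanpy 1.11.5, leidenalg 0.10.2, matplotlib 3.10.9, R 4.3.3 and edgeR 4.0.16 (TMM factors) were used. Promoters came from a RefSeq table of GRCm38.p6 and gene positions from GRCm38; proteins were not used here.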

Additional observations from a re-analysis of the deposited data

How the results depend on the processing

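The 12 log2 ratios of the 6 genes in FAP-like cells were recomputed under 12 settings each, 144 values in all, and 108 stayed inside the counting interval of the reported ratio. No paired analysis was possible because each group has 1 library. Removing 1 library would leave no comparison, so none was left out, and 3 of the settings (without the 10 cells richest in the gene, FAP subsets weighted alike, without cells holding 2 tenocyte markers) were chosen after seeing the data, as was the removal of each library's richest cell from the subsets and classes. The causes of the shifts below were not tested.

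For KO HFD against WT HFD, the sign of Thbs1 turned with the mean of per-cell CPM (0.021), thinning (0.13), the 10 highest cells removed (0.063) and subsets weighted alike (0.040). Thbs2 moved to 0.12 with subsets weighted alike and Thbs3 to -0.27 with thinning. Thbs4 stayed negative, at -0.30 with Leiden clusters, -0.23 with TMM scaling, -0.23 with per-cell means, -0.21 with thinning and -0.33 with subsets weighted alike. Comp ran from -0.43 with Leiden clusters and -0.87 with subsets weighted alike to 0.37 with per-cell means, 0.47 with thinning and 0.54 without tenocyte-marker cells. Cd47 moved under none of the 12 settings.

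For WT HFD against WT CD, Leiden clusters gave 0.77 for Comp, TMM scaling gave 0.22 for Thbs1, -0.23 for Thbs2, -0.061 for Thbs3, -0.10 for Thbs4 and 0.0055 for Cd47, and median-of-ratios scaling gave 0.23 for Thbs1, -0.22 for Thbs2, -0.091 for Thbs4 and 0.013 for Cd47. Thinning gave 0.23 for Thbs1, 0.13 for Thbs3 and 0.78 for Comp, and per-cell means gave 0.78 for Comp. Without the 10 highest cells Thbs1 was 0.19 and Comp 1.32. Subsets weighted alike gave 0.22 for Thbs1, 0.085 for Thbs4, 1.34 for Comp and 0.035 for Cd47, and Comp was 0.24 without tenocyte-marker cells.

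The count of genes past 1.5-fold in FAP-like cells for KO HFD against WT HFD was 551, which became 1771 with a minimum of 10 UMIs and 5488 with no filter. For WT HFD against WT CD it was 657, which became 1942 and 5736. Of those 657, 312 were higher and 345 lower in WT HFD, against 217 and 461 with TMM and 226 and 448 with median-of-ratios scaling. Where a class held few UMIs of a gene, the intervals are wide and differences within them were not detectable at this depth.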

Other observations

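Among the genes tied to tissue dissociation, 0 of 10 were past 1.5-fold in FAP-like cells of KO HFD against WT HFD, against 4.48% of all genes, with a median log2 ratio of 0.31 beside -0.03 over all genes. Between WT HFD and WT CD the median was -0.20 beside 0.08, and 2 of 10 were past it, against 5.39%: the heat-shock genes Hspa1a (log2 -1.03) and Hspa1b (log2 -1.11) were lower in WT HFD.

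In macrophage-like cells, Itga6, a laminin receptor chain, was highest in WT HFD, as Thbs1 was. It had 333 UMIs in WT HFD and 103 in KO HFD (log2 -1.98), and a log2 ratio of 3.42 for WT HFD to WT CD. The KO HFD level of Itga6 lay above WT CD, whereas that of Thbs1 lay below it. Sdc1, a heparan sulfate proteoglycan, was lowest in WT HFD (log2 0.98 for KO HFD to WT HFD and -0.68 for WT HFD to WT CD). Cd36 (log2 0.92) and Itgb5 (log2 0.75) were higher in WT HFD than in WT CD. Of 17 receptor and partner genes tested there, 1 was higher and 1 lower in KO HFD against WT HFD, where 9.35% of all genes passed. For WT HFD against WT CD, 3 of 17 were higher and 1 lower, against 13.5% of all genes. Spp1 was higher in KO HFD than in WT HFD (log2 1.73), as were Ccn1 (log2 1.21) and Tnxb (log2 0.60). These were 3 of 8 matricellular genes tested, against 9.35% of all genes. In MuSC-like cells Sirpa was higher in KO HFD than in WT HFD (log2 0.67), 1 of 10 receptor and partner genes tested, against 7.90% of all genes. Sparc was higher in WT HFD than in WT CD (log2 1.10), and Itgb5 (log2 -1.13) and Ccn2 (log2 -1.22) were lower. That was 1 receptor or partner gene of 9 tested, and 1 matricellular gene higher and 1 lower of 5, where 21.8% of all genes passed. In blood endothelial-like cells Tnxb (log2 0.78), Atf3 (log2 0.78) and Hspa1a (log2 0.60) were higher in KO HFD than in WT HFD. They were 1 of 7 matricellular and 2 of 10 dissociation genes tested, with 0 of 11 receptor and partner genes, against 8.96% of all genes. Lrp1 (log2 1.30), Tnxb (log2 0.76) and Ccn2 (log2 1.28) were higher in WT HFD than in WT CD. They were 1 of 11 receptor and partner genes and 2 of 7 matricellular genes tested, against 10.1% of all genes. These differences are between single libraries.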
